A study of Mus musculus with 4 samples.

Results

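The RNA of the upper jaw bone, the maxilla, was set against the RNA of the thigh bone, the femur, in 35-day-old male C57BL/6 mice. The arrays were chosen by their labels, 1 array labelled maxilla and 1 labelled femur, which are 2 of the 4 arrays of the study. Both bones came from untreated animals of the same strain, sex and age. The study measured the ilium, femur, maxilla and mandible on 1 whole-genome Agilent array each, beside an experiment that placed bone fragments into skull defects, and it set the jaw bones beside the ilium and the femur. How many mice contributed to an RNA sample is not given in the labels, and the labels name no step that removed marrow, muscle, teeth or mucosa from a bone. With 1 array for each bone there was no replicate, so no difference below has a test or a standard error, and differences are described by their size.

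The maxilla and the femur arise and work in different ways. Most of the maxilla comes from neural crest cells of the head, forms directly from mesenchyme without a cartilage template, carries the upper teeth and borders the nasal cavity and the palate. The femur comes from the mesoderm of the hindlimb, grows in length at cartilage growth plates and encloses a large cavity of blood-forming marrow. Cells of the trunk and limbs are marked by Hox transcription factors according to their place along the body axis, whereas the cells of the upper face form where Hox genes are off.

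Each level below is the log2 of a gene's probe signal after subtraction of the 75th percentile of log2 signals on that array, so that a level of 0 is the signal of that percentile. A difference is the maxilla level minus the femur level on the log2 scale, and a difference of 2 is 4-fold. A gene was counted where its probe was well above background, a call of the array software for each spot, in the brighter bone. Where the dimmer bone was not well above background, its level was replaced by the lowest level well above background on that array, or by its own level if that was higher, and the fold is then given as at least that size. This left 21781 of the 27594 genes with a value, and 2676 of them have such a bound in place of a measured difference.

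Of these 21781 genes, 2550 were at least 4-fold higher in the maxilla, which is 11.7% of those counted, and 1411 were at least 4-fold lower, which is 6.48%. The median difference over all counted genes was -0.02, and the median size of a difference was 0.763 on the log2 scale. The spread between spots of 1 probe was taken from probes with at least 5 spots well above background, 200 for the femur and 211 for the maxilla. Their median SD was 0.0656 for the femur and 0.0611 for the maxilla, which gives a technical spread of 0.0896 for a difference. That value does not cover dim probes or probes with 1 spot, and it says nothing of the spread between animals. Large differences lay mostly on the maxilla side. At 16-fold or more, 932 genes were higher in the maxilla and 35 were lower, and at 1024-fold or more 51 were higher and 0 were lower. The split between directions depends on the scaling of the arrays: 64.4% of the 4-fold calls were higher in the maxilla here, 51% after each array was centred on its median and 50.1% in the authors' deposited table. The other jaw and trunk pair, mandible minus ilium, shares no array with maxilla minus femur and its median is given beside that of most lists. Normexp, named below where calls ended under it, is a background correction that starts from the mean spot signal and the local background. In that pair 1088 genes (5.25% of 20714) were at least 4-fold higher in the mandible and 855 (4.13%) were lower.

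**Figure D1:**
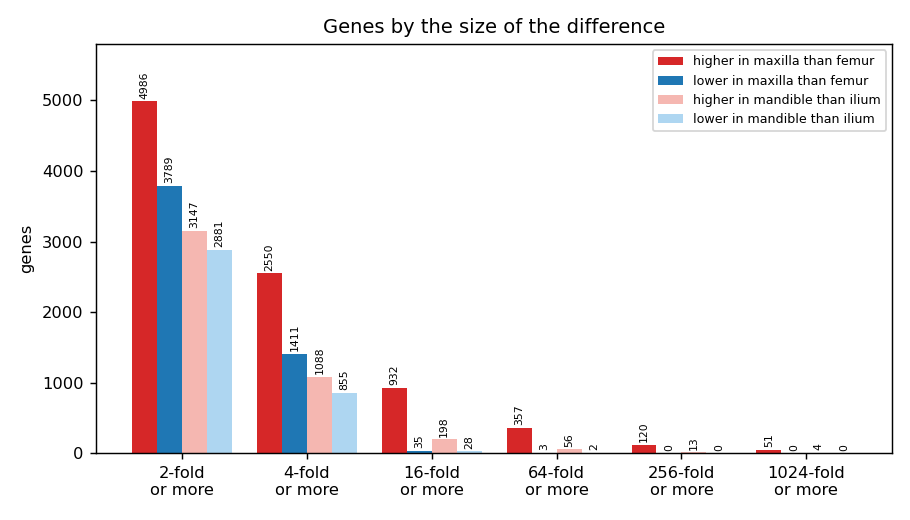
Number of genes (vertical axis) whose difference was at least the fold on the horizontal axis, with the direction and the pair of bones shown by colour, 1 array for each bone. At 16-fold or more the maxilla and femur pair has 932 genes higher and 35 lower, and the mandible and ilium pair has 198 higher and 28 lower.

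Both labels were set against genes that mark the tissues. Bglap (osteocalcin, a secreted protein of mature osteoblasts) had levels of 7.30 in the femur and 7.85 in the maxilla, and Col1a1, the main collagen chain of bone, had levels of 6.57 and 7.10, so both arrays carry bone cell RNA. Dlx1, Dlx2, Alx1 and Lhx8, homeobox genes of the developing jaw, were well above background in the maxilla, with levels between -2.77 and 0.30, and in none of these 4 cases in the femur. Hoxa9, Hoxa10, Hoxc9 and Hoxc10, Hox genes of the caudal body and hindlimb, were well above background in the femur, with levels between -2.23 and -0.23, and not in the maxilla. The classical hindlimb genes did not mark the femur: Tbx4 had a femur level of -6.16, near the lowest level well above background, and Pitx1 had levels of -1.20 in the femur and 1.39 in the maxilla.

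**Figure D2:**
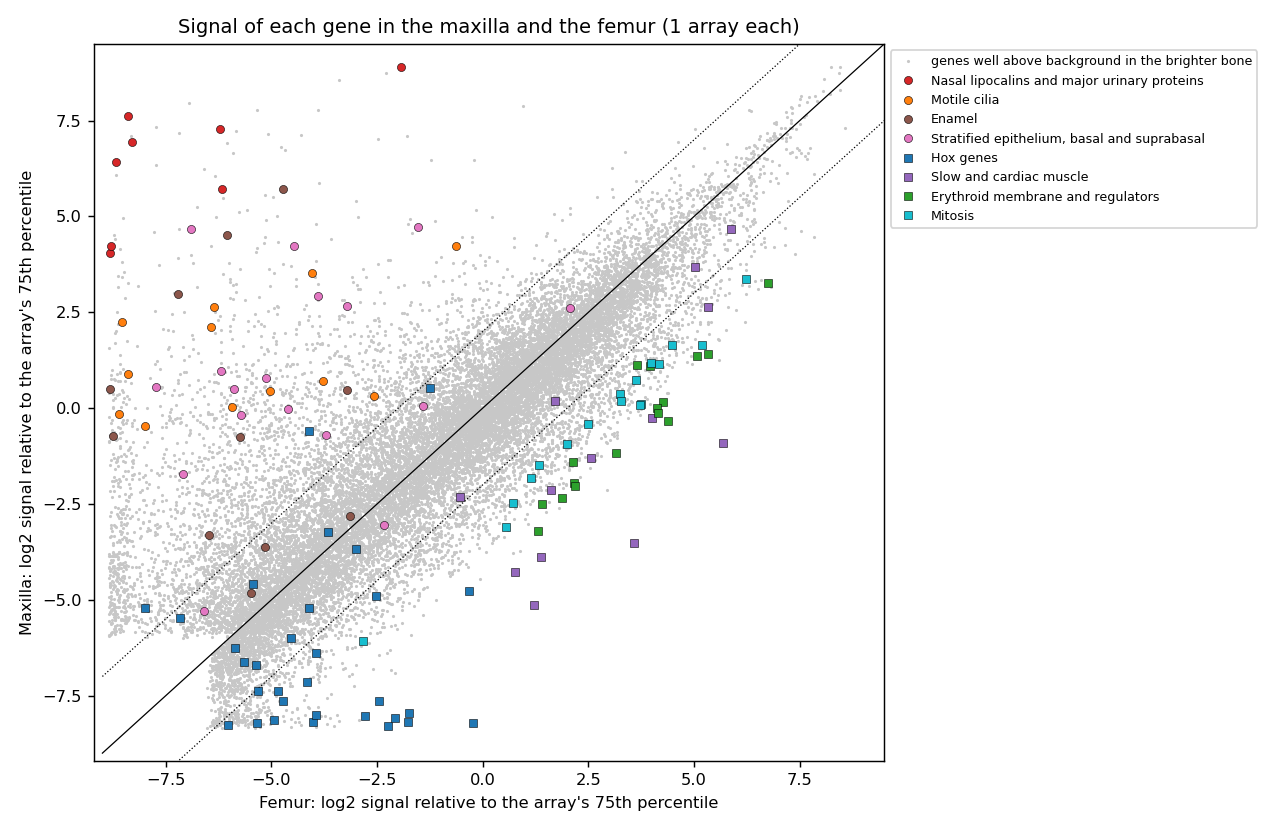
Level in the maxilla (vertical axis) against level in the femur (horizontal axis), both as levels on the log2 scale, for the 21781 genes well above background in the brighter bone. The solid line marks equal levels and the dotted lines a 4-fold difference. Members of the nasal lipocalin, motile cilia, enamel and stratified epithelium lists lie mostly above the upper dotted line, and members of the slow muscle, erythroid and mitosis lists mostly below the lower one, while many Hox genes lie along the bottom edge.

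Secreted proteins of the nasal lining were among the largest differences. Obp2a, an odorant-binding lipocalin of nasal glands, had a level of 7.63 in the maxilla and of -8.40 in the femur, where it was not well above background, so that the difference was at least 14.15, or at least 18221-fold (probe at chr2:25524253-25525172, build mm8). Its levels in the mandible and the ilium were -4.09 and -7.41, so only the maxilla array carried it at a high level. Obp1b, a second odorant-binding protein, had levels of -6.21 in the femur, 7.29 in the maxilla, -4.02 in the mandible and -5.35 in the ilium, a difference of 13.50 or 11548-fold between maxilla and femur. Lcn3 and Lcn4, lipocalins of the vomeronasal and nasal glands, were at least 7865-fold and 11283-fold higher in the maxilla. All 8 of the lipocalins and major urinary proteins with a value, of 14 listed, were at least 4-fold higher, with a median difference of 12.41, beside -0.22 for mandible minus ilium. Probes for Obp1a and Obp1b, and those for the major urinary proteins Mup4, Mup5 and Mup6, target near-identical copies and may not separate them.

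Antimicrobial and mucous proteins of the airway were also far higher in the maxilla than in the femur. Bpifa1, an antimicrobial surface protein of the upper airway, had levels of -7.73 in the femur, not well above background, 7.33 in the maxilla, -3.86 in the mandible and -1.86 in the ilium. Bpifb9a, of the same gene family, had levels of -5.34, 7.79, 0.57 and -6.28 in the femur, maxilla, mandible and ilium, a difference of 13.13 between maxilla and femur. Reg3g, a C-type lectin that kills bacteria, was higher in the maxilla by a difference of 13.07, and Bpifb5 by one of 12.25. The mucins Muc5b and Muc5ac, which form airway mucus, had differences of 7.55 and 7.61, although a second Muc5ac probe gave 2.03. In this list 17 of 20 counted genes were at least 4-fold higher in the maxilla and 0 were lower, with a median of 6.97 beside -0.10 for mandible minus ilium. The 3 others were Bpifb6, Scgb1a1 and Ltf, and Ltf, lactoferrin, which neutrophils also make, had near equal levels of 7.16 in the femur and 7.30 in the maxilla. Dmbt1, a mucosal scavenger receptor, with a difference of 12.97, and Wfdc18 and Wfdc2, of the whey acidic protein family, with 11.96 and 11.43, were also among the 12 largest measured differences.

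Ciliated cells were represented by their regulator and their motor proteins. Foxj1, the transcription factor that switches on motile cilia, had levels of -6.36 in the femur, not well above background, 2.65 in the maxilla, -4.48 in the mandible and -6.69 in the ilium. Dnah5, an outer-arm dynein heavy chain, had maxilla and femur levels of 2.25 and -8.54, at least 438-fold apart by the brightest of 3 probes and by a difference of 3.39 by another. Tekt1, a protein of ciliary microtubules, was 191-fold higher in the maxilla. A second dynein chain, Dnah9, was at least 373-fold higher by its brightest probe and by a difference of 0.19 by another, and it was not past 4-fold as the median over probes. Every one of the 12 counted cilia genes was at least 4-fold higher in the maxilla, where the background is 11.7%, with a median of 6.23 and 0.54 in the mandible and ilium pair.

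Genes of the olfactory epithelium were also higher in the maxilla. Gng13, a G protein subunit of olfactory and taste cells, had levels of -5.97 in the femur, 3.36 in the maxilla, -4.95 in the mandible and -6.09 in the ilium, a difference of 9.34 or 646-fold. The chloride channel Ano2, which amplifies the odour response, was at least 153-fold higher by its brightest probe and by a difference of 2.78 by another, and the receptor chaperone Rtp2 and the olfactory stomatin Stoml3 at least 98.1-fold and 97.8-fold higher. Omp, the olfactory marker protein of mature neurons, had levels of -4.78 in the femur and -0.45 in the maxilla, and it was not well above background in the mandible. Of 16 counted genes of this list, 12 were at least 4-fold higher in the maxilla and 0 lower, with a median of 4.30 beside 0.35. Cngb1 and Trpc2, subunits of sensory ion channels, were read differently by different probes: Cngb1 probes gave differences from -0.63 to 5.44 and Trpc2 probes from -1.51 to 4.36.

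Enzymes that break down inhaled compounds formed a further group. Cyp2a5, a cytochrome P450 of the nasal mucosa and liver, had levels of -7.19 in the femur, not well above background, 7.18 in the maxilla, -2.82 in the mandible and -3.69 in the ilium, at least 13427-fold between maxilla and femur. Cyp2a4, a near-identical paralogue whose signal may be shared with Cyp2a5, was 3119-fold higher, and Cyp2g1 and Cyp2f2, further P450 enzymes of olfactory and airway cells, were 801-fold and 718-fold higher. Of 21 counted enzymes 16 were at least 4-fold higher in the maxilla and 0 lower, with a median difference of 6.20 beside 0.37. Cyp4b1 did not follow, with levels of 2.69 in the femur and 2.62 in the maxilla.

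Gland genes shared with salivary tissue were among the largest differences too. Aqp5, the water channel of secretory acinar cells, had levels of -6.76 in the femur, not well above background, 5.25 in the maxilla, -4.48 in the mandible and -5.59 in the ilium. Pip, a secreted glycoprotein of salivary and lacrimal glands, had a difference of 12.58 by its brighter probe and of at least 2.88 by the other. Car6, the secreted carbonic anhydrase of saliva, was 1905-fold higher and Dcpp3, a parotid secretory product with near-identical copies, at least 1971-fold higher. In all, 10 of 12 counted genes were at least 4-fold higher in the maxilla and 0 lower, with a median difference of 6.50 beside 1.54 for mandible minus ilium. Amy1, whose probes cannot separate it from other amylase copies, had levels of 1.00 in the femur and 1.27 in the maxilla. Cabs1, named for a calcium-binding protein of sperm, had the largest bound of all, at least 22890-fold, with maxilla and femur levels of 7.95 and -6.95, and its second probe gave at least 8.59 on the log2 scale.

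Genes of simple epithelia, which line ducts, glands and airways, were higher as well. Krt8, a keratin of simple epithelia, had levels of -4.97 in the femur, 5.51 in the maxilla, 0.97 in the mandible and -4.94 in the ilium, a difference of 10.47 or 1423-fold. Krt19, a keratin of ducts, was 884-fold higher, and the epithelial transcription factor Elf5 and the membrane protein Prom2 at least 846-fold and 827-fold higher, although a second Prom2 probe gave a difference of 2.70. All 19 counted genes of simple epithelia were at least 4-fold higher in the maxilla, with a median of 6.90, and 9 of 15 were in the mandible, with a median of 2.42. The summed signal of this list, on the same log2 scale as a level, was 0.23 in the femur, 7.82 in the maxilla, 3.33 in the mandible and 0.08 in the ilium.

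Genes of layered epithelia, such as those of the gum and palate, were mostly higher in the maxilla, and 10 of 15 were past 4-fold in the mandible and ilium pair. Krt5, the keratin of basal cells, had levels of -4.47 in the femur, 4.22 in the maxilla, 5.31 in the mandible and -4.86 in the ilium, a difference of 8.69 between maxilla and femur. Krt15, another basal keratin, was at least 2356-fold higher in the maxilla, Col17a1, a collagen of the basal anchor, 141-fold by its brightest probe and Serpinb5, an epithelial serpin, at least 136-fold. Of 17 counted genes, 13 were at least 4-fold higher in the maxilla and 0 lower, and the median was 5.88, beside 6.20 for mandible minus ilium. Genes of the cornified envelope, the hardened outer shell of surface cells, were higher in smaller numbers: 6 of 11, with a median of 2.85 beside 0.20. Lor (loricrin), the envelope's main protein, led them with levels of -3.21 in the femur and 1.14 in the maxilla, ahead of Sprr1a, Lce3c and Krtdap with differences of 3.87, 3.80 and 3.79. With normexp 3 of 11 were past 4-fold, Krtdap not among them.

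Tooth matrix genes were mostly higher in the maxilla than in the femur, and 7 of 11 were past 4-fold in the mandible and ilium pair. Ambn (ameloblastin), an enamel matrix protein, had levels of -6.05 in the femur, 4.51 in the maxilla, 6.98 in the mandible and -5.24 in the ilium, a difference of 10.55 or 1503-fold. Amelx (amelogenin), the most abundant enamel protein, had levels of -4.73, 5.72, 6.07 and -2.56 in the same order, a difference of 10.45 by its brighter probe and 6.34 by the other. Enam (enamelin) was at least 131-fold higher in the maxilla, and Odam, which ameloblasts and the gum attachment secrete, at least 724-fold higher. Of the 11 counted enamel genes 8 were at least 4-fold higher in the maxilla and 0 lower, with a median of 4.99 beside 5.28. Klk4, the late enamel protease, was not among them, with a difference of 0.32.

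Dentin and bone share a family of acidic matrix proteins, the SIBLINGs. Dspp, the dentin member, had levels of -8.55 in the femur, not well above background, 3.43 in the maxilla, 5.71 in the mandible and -3.81 in the ilium, so that it was at least 993-fold higher in the maxilla than in the femur. The 4 members made by bone cells, Dmp1, Ibsp, Mepe and Spp1, had smaller differences of 1.16, 1.25, 0.48 and 1.40. All 5 were thus higher in the maxilla, Dspp was the member past 4-fold, and the median was 1.25 beside 0.47 for mandible minus ilium.

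**Figure D3:**
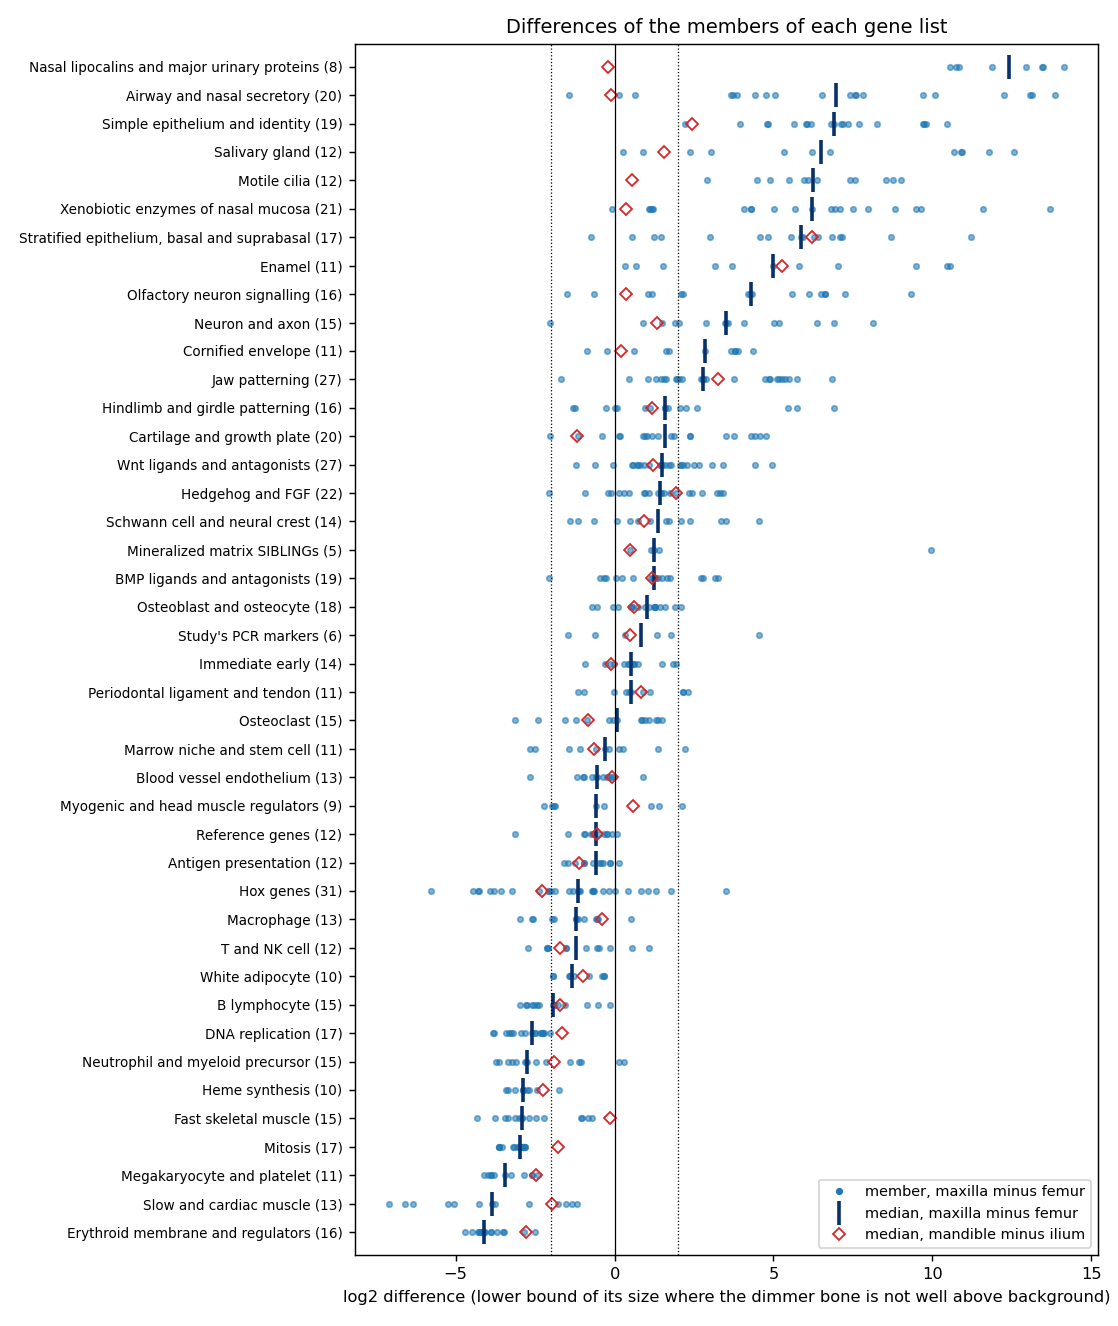
Differences on the log2 scale (horizontal axis) for the counted members of each gene list (vertical axis, number of members in brackets), with lists ordered by their median in the maxilla and femur pair. Points are members, bars their median, and open diamonds the median of mandible minus ilium. The dotted lines mark a 4-fold difference. The medians run from -4.11 for erythroid genes to 12.41 for nasal lipocalins, with medians of 4.99 and 5.28 in the 2 pairs for enamel and of 12.41 and -0.22 for nasal lipocalins.

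Bone-forming cells showed modest differences beside these. Omd (osteomodulin), a keratan sulphate proteoglycan of bone, had levels of 0.85 in the femur and 2.95 in the maxilla, a difference of 2.10. It was the 1 gene of 18 osteoblast and osteocyte genes past 4-fold, where the background is 11.7% higher in the maxilla. Enpp1, which makes the mineral inhibitor pyrophosphate, had a difference of 1.90, Phex, an osteocyte endopeptidase, one of 1.59, and Pdpn (podoplanin), of early osteocytes, one of 1.44. The median was 1.01, with 15 of 18 genes higher in the maxilla, beside 0.60 for mandible minus ilium. Sost (sclerostin), the osteocyte inhibitor of bone formation, had nearly equal levels of -0.55 and -0.59. After median centring and in the deposited table Omd was not past 4-fold.

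Osteoclast genes, those of the cells that resorb bone, went both ways. Car2 (carbonic anhydrase 2), which red cells also contain, had levels of 6.45 in the femur and 3.32 in the maxilla, a difference of -3.13, and Itgb3, an integrin that platelets also carry, had one of -2.42 by its brightest probe, not past 4-fold as the median over probes. Mmp9, a gelatinase that neutrophils also store, had a difference of -1.57, and Tnfrsf11a (RANK), the receptor that starts osteoclast formation, one of 1.48. With 8 of 15 genes higher and 7 lower, the median was 0.07 beside -0.84 for mandible minus ilium, and its sign turned under other scalings. The marrow genes reported further on were lower in the maxilla, and their part in the values of Car2, Itgb3 and Mmp9 was not tested.

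Cartilage genes were mostly higher in the maxilla, against their order in the other pair. Epyc (epiphycan), a growth cartilage proteoglycan, had levels of -5.90 in the femur, -1.14 in the maxilla, -3.01 in the mandible and -2.08 in the ilium, a difference of 4.75 between maxilla and femur. Ucma, a secreted protein of chondrocytes, had levels of -5.01, -0.45, -4.68 and -0.27 in the same order, so that the maxilla and the ilium were high and the femur and the mandible low. Mia, another chondrocyte product, and Sox9, the main cartilage transcription factor, which glands and hair follicles also use, had differences of 4.41 and 4.30. Of 20 counted genes 8 were at least 4-fold higher in the maxilla, where the background is 11.7%. Lower was 1 gene, Prg4 (lubricin of joint surfaces), by 4.09-fold, where the background is 6.48%. The median was 1.58 in the maxilla and femur pair and -1.19 in the mandible and ilium pair, where 3 genes were at least 4-fold higher and 8 lower. Col10a1, the collagen of growth plate hypertrophic cells, was not well above background in the femur, with a level of -6.68, and had levels of -4.16 in the maxilla and -1.96 in the ilium. With normexp 5 of 20 cartilage genes were past 4-fold higher and 0 lower, and Col10a1 and Prg4 were no longer past it.

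Ligament and tendon genes gave 3 of 11 counted genes past 4-fold in the maxilla and 0 in the femur. Among all counted genes the shares were 11.7% and 6.48%. Postn (periostin), a matrix protein of the periodontal ligament and periosteum, had levels of 4.62 in the femur, 6.93 in the maxilla, 6.21 in the mandible and 4.76 in the ilium, a difference of 2.31. Aspn (asporin), of the same ligament, and Mkx, a tendon transcription factor, had differences of 2.17 and 2.16. Tnmd (tenomodulin), a tendon membrane protein, was lower in the maxilla by a difference of -1.15. After each array was centred on its median, and in the deposited table, Postn, Aspn and Mkx were no longer past 4-fold. The list median was 0.50 beside 0.83 for mandible minus ilium.

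Positional genes separated the bones in both directions. Of 38 Hox genes with a value, 29 were well above background in the femur and 10 in the maxilla. Of all 27594 genes with a value, 20622 were well above background in the femur and 20369 in the maxilla. The Hox share was thus near that of all genes in the femur and below it in the maxilla. Hoxc9 had levels of -0.23 in the femur, -8.22 in the maxilla, not well above background, -6.14 in the mandible and 0.17 in the ilium, so that it was at least 55.2-fold lower in the maxilla (probe at chr15:102812338-102812397, build mm8). Hoxa7 had levels of -0.32 in the femur, -4.77 in the maxilla, -3.92 in the mandible and 0.11 in the ilium, a measured difference of -4.45. Both jaw bones were thus low and both other bones high for these genes. Hoxa10 and Hoxc6 were at least 19.5-fold and 19.1-fold lower in the maxilla. Of the 31 counted Hox genes 11 were at least 4-fold lower and 1 was higher, with a median of -1.17 beside -2.30 for mandible minus ilium, and 23 of these differences are bounds. With normexp 3 of 27 counted Hox genes were past 4-fold lower, Hoxc9, Hoxa7 and Hoxc6, and 1 higher, and the median was -0.25. Hoxa10 and 7 other genes of the 11 were not past 4-fold there, Hoxa10 with a difference of -1.95. Among the 8 genes well above background in both bones 2 were lower and 1 higher, with a median of -0.13.

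Hoxc4 was the 1 Hox gene past 4-fold in the opposite direction. Its 1 probe had levels of -4.11 in the femur, -0.60 in the maxilla, -4.17 in the mandible and -4.16 in the ilium, an 11.4-fold higher signal in the maxilla than in the femur. Hoxb6 was read in opposite ways by its probes, with a difference of 1.77 by the brighter and -3.04 by the other. Hoxb1 and Hoxb13, at the ends of the Hoxb cluster, were well above background in the maxilla at levels of -5.49 and -5.22 and not in the femur. Hoxc4, Hoxb6, Hoxb1 and Hoxb13 were singled out after their values were seen.

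**Figure D4:**
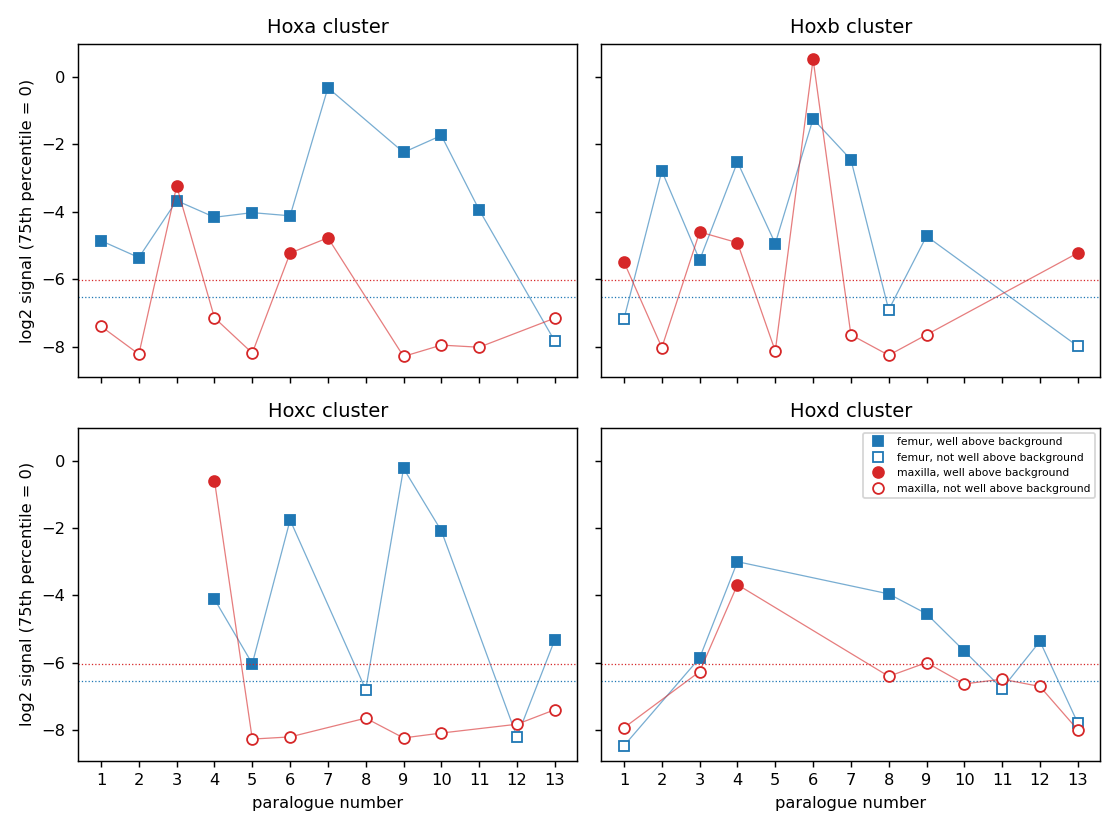
Level on the log2 scale (vertical axis, 0 at the 75th percentile) of each Hox gene with a value by paralogue number (horizontal axis) in the femur (squares) and the maxilla (circles), 1 panel for each cluster. Filled symbols are well above background, open symbols are not, and dotted lines mark the lowest level well above background on each array. In the femur 29 genes are filled and in the maxilla 10, beside 20622 and 20369 of all 27594 genes with a value. Among the counted Hox genes Hoxa3, Hoxb1, Hoxb3, Hoxb6, Hoxb13 and Hoxc4 lie above their femur level.

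Jaw patterning genes ran the other way. Alx1, a homeobox gene of the frontonasal and maxillary mesenchyme, had levels of -8.41 in the femur, not well above background, 0.30 in the maxilla, 1.65 in the mandible and -2.56 in the ilium, so that it was at least 114-fold higher in the maxilla than in the femur. Lhx8, a LIM homeobox gene of the oral jaw mesenchyme, Gsc (goosecoid) and Pax3, a gene of neural crest and muscle precursors, were at least 53.3-fold, 44.5-fold and 40.8-fold higher. For Lhx8 this is the brighter probe, and the other gave 2.87 on the log2 scale. The distal-less genes Dlx1 and Dlx2, which set up the branchial arches, were at least 13.5-fold and 29.5-fold higher in the maxilla, and Dlx5 and Dlx6, which specify the lower jaw, had differences of 1.60 and 2.03. Dlx1 and Dlx6 were not past 4-fold with normexp, where 14 of 27 genes were. Of 27 counted genes 18 were at least 4-fold higher and 0 lower, where the background is 11.7%, with a median of 2.77 beside 3.24 for mandible minus ilium. Pou3f3 alone of the 27 was lower in the maxilla, by a difference of -1.68. Several of these genes are also active in tooth, gland or nasal epithelium, whose markers were higher in the maxilla. All 19 counted simple epithelial markers and all 8 nasal lipocalins were at least 4-fold higher there, with summed log2 signals of 0.23 and -1.73 in the femur and 7.82 and 10.14 in the maxilla, and their part in the result was not tested.

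Of the genes that pattern the hindlimb and girdle, 0 of 16 were past 4-fold higher in the femur. Among all counted genes that share was 6.48%, so a count of 0 among 16 is near it. Isl1, which starts hindlimb budding and also acts in nerve cells and the jaw, had levels of -6.26 in the femur, 0.65 in the maxilla, 0.46 in the mandible and -3.23 in the ilium, a difference of 6.91 or 120-fold. Pax1, a gene of the girdle and of the pharynx, was at least 53.6-fold higher in the maxilla and Meis2, a Hox cofactor also found in the head, 43.6-fold. Pitx1, the hindlimb identity gene, which the oral region also expresses, had levels of -1.20 in the femur, 1.39 in the maxilla, 1.29 in the mandible and -1.75 in the ilium. In total 6 of 16 genes were at least 4-fold higher in the maxilla, where the background is 11.7%. The list median was 1.59 beside 1.17 for mandible minus ilium. Lower by less than 4-fold were 3 genes, the largest of these differences being at least 2.51-fold.

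Signalling genes of tooth, bone and epithelium were read against the background of all genes, where 11.7% were past 4-fold higher in the maxilla and 6.48% lower. Among Wnt ligands and their secreted antagonists, Sfrp2, which binds Wnt proteins, had levels of -1.11 in the femur, 3.82 in the maxilla, 4.96 in the mandible and 0.82 in the ilium, a difference of 4.94. Sostdc1 (ectodin), an antagonist that limits tooth number, was 21.5-fold higher, the ligand Wnt3a 10.6-fold and the antagonist Sfrp1 8.33-fold. Of 27 counted Wnt genes 10 were past 4-fold in the maxilla and 0 in the femur, with a median of 1.49 beside 1.21. With normexp 5 of 27 were past 4-fold, Wnt3a not among them, and after median centring 6. Of 19 BMP ligands and antagonists 4 were higher and 1 lower: among them Bmp7, a tooth and bone ligand, had a difference of 3.24, the ligands Gdf10 and Gdf5 ones of 2.79 and 2.73, and Grem1, an antagonist of stromal cells, one of -2.07. The BMP share lower lies near the background and the share higher lies above it, though both counts are small. The BMP median was 1.23 beside 1.18, and Grem1 was not past 4-fold with normexp. In the hedgehog and FGF list 6 of 22 were higher and 1, Fgf8, was lower, with a median of 1.42 beside 1.92. Shh, the hedgehog ligand of tooth epithelium, had levels of -8.57 in the femur, -3.30 in the maxilla, 0.88 in the mandible and -8.44 in the ilium, at least 9.4-fold higher in the maxilla than in the femur, where it was not well above background. The hedgehog-binding protein Hhip and the ligand Fgf10 were at least 10.7-fold and 9.86-fold higher, and Fgf9 was 6.68-fold higher. With normexp Shh, Hhip, Fgf10, Fgf9 and Fgf8 were not past 4-fold, and 1 gene of 22 was. Stratified epithelial markers, 13 of 17 of them past 4-fold, had summed log2 signals of 2.47 in the femur and 6.66 in the maxilla, and their part in the signalling values was not tested.

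Nerve genes were higher in the maxilla. Elavl3, an RNA-binding protein of neurons, had levels of -7.42 in the femur, not well above background, 1.59 in the maxilla, -4.92 in the mandible and -8.01 in the ilium, so that it was at least 278-fold higher in the maxilla than in the femur. Its relative Elavl4 and the migration protein Dcx (doublecortin) were at least 121-fold and 82.1-fold higher and Stmn2, a growth cone protein, 36.1-fold. Of 15 counted neuron genes 11 were at least 4-fold higher in the maxilla, with a median of 3.51 beside 1.33, and 1, the neurofilament gene Nefh, was 4.14-fold lower. Nefh was not past 4-fold with normexp, and Dcx, which has 3 probes, gave 0.00 as the median over probes. Olfactory neurons express several of these genes too. The 16 olfactory genes had summed log2 signals of 1.96 in the femur and 4.93 in the maxilla, and their part in the result was not tested.

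The study measured 5 neural crest and neural stem cell markers by PCR against Gapdh, and these genes were read on the arrays. Sox10, a transcription factor of neural crest and Schwann cells that gland cells also use, had levels of -3.18 in the femur, 1.35 in the maxilla, -2.45 in the mandible and -3.41 in the ilium, a difference of 4.53 or 23.2-fold. It was thus high in the maxilla and not in the mandible. Ngfr (p75) had a difference of 1.78 by its brighter probe and -0.42 by the other, Nes (nestin) one of 1.35, Msi1 (Musashi-1) one of 0.33 and Wnt1 one of -0.62. Gapdh, the reference gene of that PCR, was itself lower in the maxilla, with levels of 6.36 in the femur and 4.88 in the maxilla, a difference of -1.48. In the wider Schwann cell and neural crest list 5 of 14 genes were past 4-fold in the maxilla, where the background is 11.7%. Past 4-fold in the femur were 0, where the background is 6.48%. Among the 5 were Sox10, the growth factor receptor Erbb3, the pigment cell enzyme Dct and the calcium-binding protein S100b. Their differences, in this order, were 4.53, 3.50, 3.35 and 2.38. The list median was 1.37 beside 0.93. Dct was not past 4-fold with normexp, and Erbb3 was not as the median over probes.

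Blood-forming genes were lower in the maxilla. In bulk RNA, fewer cells of a type and less RNA in each cell cannot be told apart. Kel, a red cell membrane antigen, had levels of 4.38 in the femur, -0.34 in the maxilla, 0.82 in the mandible and 3.90 in the ilium, a difference of -4.72 or 26.3-fold lower in the maxilla (probe at chr6:41616082-41616141, build mm8). Rhag, an ammonia channel of the red cell membrane, was 22.6-fold lower, Klf1, the regulator of globin genes, 19.9-fold and Ermap, a red cell adhesion protein, 19.3-fold. All 16 erythroid genes were at least 4-fold lower in the maxilla, where the background is 6.48%, with a median of -4.11 and a range from -4.72 to -2.52. The same list had a median of -2.78 for mandible minus ilium, with 15 genes past 4-fold.

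Heme synthesis followed the red cell genes. Slc25a37 (mitoferrin-1), which brings iron into mitochondria, had a difference of -3.41. Alad, an early enzyme of the pathway, had levels of 4.73 in the femur, 1.84 in the maxilla, 2.14 in the mandible and 4.58 in the ilium, a difference of -2.89. The later enzyme Cpox had a difference of -3.34. Of 10 genes 9 were at least 4-fold lower in the maxilla, and the exception, Urod, was 3.35-fold lower. The median was -2.87 beside -2.25 for mandible minus ilium.

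Platelet precursor genes were lower without exception in their list. Itga2b, the platelet fibrinogen receptor chain, had levels of 2.30 in the femur, -1.80 in the maxilla, -1.54 in the mandible and 1.69 in the ilium, a difference of -4.11. The platelet glycoproteins Gp5 and Gp1ba had differences of -3.97 and -3.89. All 11 genes were at least 4-fold lower in the maxilla, with a median of -3.46 beside -2.49.

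Most neutrophil genes were lower in the maxilla. Prtn3 and Elane, proteases stored in the primary granules of precursors, had levels of 1.64 and 2.90 in the femur and -2.08 and -0.72 in the maxilla, differences of -3.72 and -3.63. Mpo (myeloperoxidase) and Mmp8, a collagenase of later granules, had differences of -3.36 and -3.23. S100a8 and S100a9, the cytosolic proteins of mature neutrophils, had differences of -1.05 and 0.28. Of 15 counted genes 10 were at least 4-fold lower in the maxilla, and the 5 that were not are Camp, Ltf, S100a8, S100a9 and Chil3, with differences from -1.41 to 0.28. The median was -2.77 beside -1.91 for mandible minus ilium. Epithelial cells can also make S100a8, S100a9 and Ltf, and the part of the epithelial genes in these values was not tested.

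Lymphocyte genes had smaller medians. Rag1, a recombinase of B and T cell precursors, had levels of 0.98 in the femur, -2.00 in the maxilla, -1.38 in the mandible and 0.57 in the ilium, a difference of -2.98. Igll1, the surrogate light chain of early B cells, had a difference of -2.80 by its brightest probe and Cd22, a B cell surface receptor, one of -2.60. Of 15 B cell genes 7 were past 4-fold and all 15 were lower, with a median of -1.94 beside -1.73 for mandible minus ilium, and Igll1 was not past 4-fold as the median over probes. Of 12 T and NK cell genes 4 were past 4-fold: Cd8a, Gzma (granzyme A), Lck and Ncr1, with differences from -2.72 to -2.11, the last a bound. The median was -1.22 beside -1.71, and with normexp none of these 4 was past 4-fold. Genes of macrophages had 3 of 13 past 4-fold, Siglec1, Timd4 and Marco, which mark resident macrophages of blood-forming and lymphoid tissue, with differences of -2.99, -2.59 and -2.58, although a second Siglec1 probe gave -0.54. The median was -1.21 beside -0.41, and with normexp 0 of 13 were past 4-fold. Among all counted genes 6.48% were past 4-fold lower in the maxilla. Antigen presentation genes had 0 of 12 past 4-fold, with a median of -0.59 beside -1.11 and the largest difference for Tap1, the peptide transporter, at -1.59.

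Genes of the marrow niche went both ways, and few were past 4-fold. Vcam1, which tethers blood-forming cells, had levels of 4.27 in the femur, 1.61 in the maxilla, 2.01 in the mandible and 3.83 in the ilium, a difference of -2.66. Cxcl12, the chemokine that retains stem cells, had levels of 5.41, 2.90, 3.65 and 5.30 in the same order, a difference of -2.51. Kit, the receptor of stem and mast cells, had a difference of -1.44, while Foxc1, a transcription factor of niche cells that also acts in the head, had one of 2.22. Of 11 genes 2 were lower and 1 was higher past 4-fold, beside 6.48% and 11.7% of all counted genes. The list median was -0.30 beside -0.66 for mandible minus ilium, and Foxc1 was not past 4-fold after median centring.

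**Figure D5:**
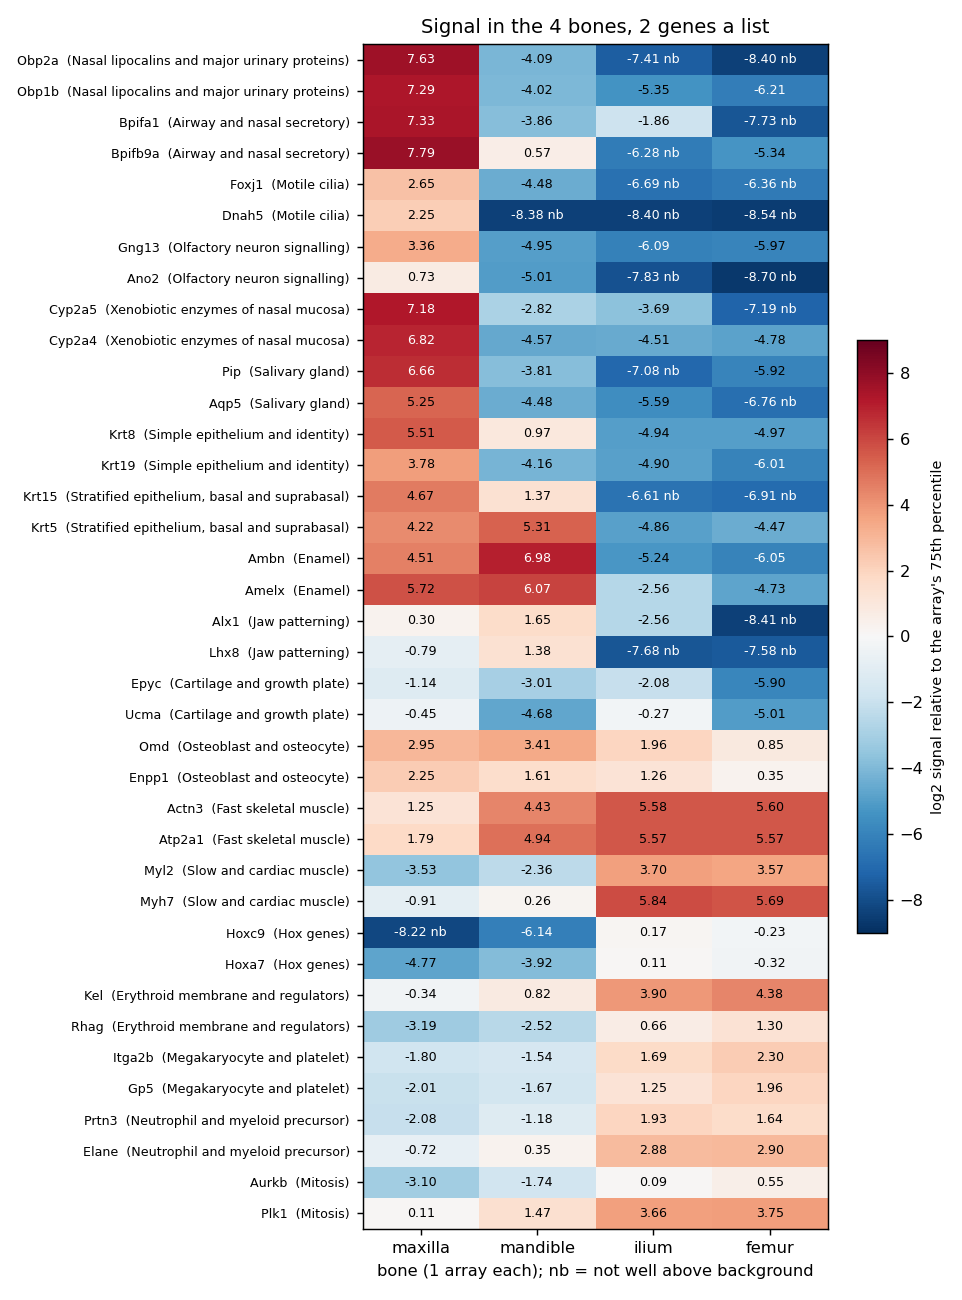
Level on the log2 scale (colour and printed number, 0 at the 75th percentile) of 2 genes from each of 19 lists in the 4 bones, 1 array each, with nb for not well above background. The nasal genes are highest in the maxilla, enamel genes are highest in the maxilla and mandible, and Hox, erythroid and mitosis genes in the ilium and femur.

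Cell division genes were lower in the maxilla. Aurkb, a kinase that checks chromosome attachment, had levels of 0.55 in the femur, -3.10 in the maxilla, -1.74 in the mandible and 0.09 in the ilium, a difference of -3.65. Plk1, a mitotic kinase, and Ube2c, the enzyme that tags cyclins for destruction, had differences of -3.64 each, and Ccnb2 (cyclin B2) one of -3.55. All 17 mitosis genes were at least 4-fold lower in the maxilla, within a narrow range from -3.65 to -2.82, although a second probe of Kif11 gave -0.64. All 17 DNA replication genes were at least 4-fold lower too, led by the origin-binding subunit Orc1 at -3.83, the loader Cdc6 at -3.79 and the helicase subunits Mcm10 and Mcm2 at -3.40 and -3.31. The medians were -2.96 and -2.60, beside -1.80 and -1.66 for mandible minus ilium. The blood precursor genes lower in the maxilla include those of rapidly dividing cells. The summed log2 signal of the 16 erythroid genes was 8.30 in the femur and 4.64 in the maxilla, and their part in these values was not tested.

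Genes that differ together in this way often share short promoter sequences, and promoters of 3 mitosis genes, 2 replication genes and 2 erythroid genes are shown for their textbook motifs. They are from RefSeq on build GRCm38.p6, given 5' to 3' on the strand of the gene, and lie before the listed start of the gene. In the mitosis promoters, capitals mark CCAAT, the box bound by NF-Y, and TTTGAA, the cell cycle homology region, on either strand (ATTGG and TTCAAA on the other). Ccnb2 lies at chr9:70421561-70421721 (minus strand), Cdc20, an activator of cyclin destruction, at chr4:118437344-118437463 (minus strand) and Ube2c at chr2:164769701-164769915 (plus strand).
Ccnb2: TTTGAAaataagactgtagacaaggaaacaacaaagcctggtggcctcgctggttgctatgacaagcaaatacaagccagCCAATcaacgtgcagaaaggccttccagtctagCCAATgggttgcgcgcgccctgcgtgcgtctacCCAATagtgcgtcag
Cdc20: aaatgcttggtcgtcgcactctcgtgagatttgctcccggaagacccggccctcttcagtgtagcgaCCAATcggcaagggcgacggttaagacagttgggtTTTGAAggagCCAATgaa
Ube2c: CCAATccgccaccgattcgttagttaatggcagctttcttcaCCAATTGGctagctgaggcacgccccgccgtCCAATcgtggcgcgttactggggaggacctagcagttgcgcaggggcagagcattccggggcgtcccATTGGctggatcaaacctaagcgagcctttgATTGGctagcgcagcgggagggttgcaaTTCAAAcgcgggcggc
The Ccnb2 stretch holds 4 matches, the Cdc20 stretch 3 and the Ube2c stretch 7, of which 2 overlap in CCAATTGG. In the replication promoters capitals mark the E2F sites TTTGGCGC or TTTCCCGC on either strand. Mcm5 lies at chr8:75109259-75109378 (plus strand) and Mcm6 at chr1:128359735-128359854 (minus strand).
Mcm5: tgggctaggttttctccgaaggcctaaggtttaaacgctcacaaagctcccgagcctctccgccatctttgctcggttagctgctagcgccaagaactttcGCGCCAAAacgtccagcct
Mcm6: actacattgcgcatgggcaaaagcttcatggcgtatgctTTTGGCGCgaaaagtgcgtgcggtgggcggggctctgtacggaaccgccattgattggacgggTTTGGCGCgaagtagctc
The erythroid promoters carry AGATAA in capitals (TTATCT on the other strand), a site of GATA factors. Kel lies at chr6:41704366-41704485 (minus strand) and Epb42, a red cell membrane skeleton protein, at chr2:121037008-121037127 (minus strand).
Kel: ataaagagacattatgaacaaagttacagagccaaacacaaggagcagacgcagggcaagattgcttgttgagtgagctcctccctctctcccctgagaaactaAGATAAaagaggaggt
Epb42: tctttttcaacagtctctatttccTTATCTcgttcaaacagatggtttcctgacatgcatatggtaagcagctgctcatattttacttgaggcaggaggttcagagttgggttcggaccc
The Mcm6 stretch holds 2 matches and the Mcm5, Kel and Epb42 stretches 1 each. The 7 genes were chosen as examples with a match, so their matches support nothing. The promoters searched covered 15 of 17 mitosis genes and 14 of 17 replication genes. They also covered 12 of 16 erythroid genes and 10 of 14 genes of the nasal list. Some genes have more than 1 of the 15 replication or 15 erythroid promoters. In the 250 bases before the start, CCAAT was found in 14 of 15 mitosis promoters and 12 of 15 replication promoters. The share in all 32851 promoters was 33.8%. CCAAT was found in 8 of 15 erythroid promoters and 4 of 10 promoters of nasal lipocalins as well. TTTGAA was found in 6 of 15 mitosis promoters, against 16% of all, and in 5 of 10 promoters of nasal lipocalins. The E2F sites were found in 5 of 15 replication promoters and 0 of 15 mitosis promoters, against 1.3% of all. Median GC content was 56.8% in the replication promoters and 61.6% in the mitosis promoters, against 52.4% in all promoters. The part of GC content in these shares was not tested. AGATAA was found in 4 of 15 erythroid promoters, against 9.99% of all, and also in 4 of 10 promoters of the nasal list, whose median GC content of 43.2% is below the 52.4% of all promoters. A match is a description of these letters and no sign that a factor binds there.

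Muscle genes were lower in the maxilla, most of all those of slow fibres. Myl2, the regulatory light chain of slow and cardiac muscle, had levels of 3.57 in the femur, -3.53 in the maxilla, -2.36 in the mandible and 3.70 in the ilium, a difference of -7.10 or 137-fold, the largest measured on the femur side (probe at chr5:122364530-122365480, build mm8). Myh7, the slow myosin heavy chain, had levels of 5.69, -0.91, 0.26 and 5.84 in the same order, a difference of -6.60. Tnni1, the slow troponin I, and Myh6, the related atrial myosin, had differences of -6.34 and -5.26, and Myh6 and Myh7 are close copies that probes may not separate fully. Of 13 slow and cardiac genes 9 were at least 4-fold lower in the maxilla, with a median of -3.87 beside -1.98 for mandible minus ilium.

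Fast fibres gave another pattern across the 4 bones. Actn3, an actinin of fast fibres, had levels of 5.60 in the femur, 1.25 in the maxilla, 4.43 in the mandible and 5.58 in the ilium, a difference of -4.34. The calcium pump Atp2a1, calsequestrin Casq1 and the fast myosin Myh4 had differences of -3.77, -3.44 and -3.36. Of 15 genes 11 were at least 4-fold lower in the maxilla, with a median of -2.90, whereas 0 of 15 passed 4-fold in mandible minus ilium, with a median of -0.15. The summed signal of the list, on the log2 scale of a level, was 8.87 in the maxilla, 10.67 in the femur, 10.62 in the mandible and 10.69 in the ilium. The fast myosin Myh1 differed by -0.71. Among myogenic regulators Myf6, of mature fibres, had a difference of -2.23, and Myog and Myod1 ones of -1.99 and -1.92. Myf6 was not past 4-fold with normexp, and the list median was -0.59 beside 0.58.

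Few vessel, fat, immediate early and reference genes were past 4-fold, where the background is 11.7% higher in the maxilla and 6.48% lower. Of 13 endothelial genes 1 was past 4-fold: Stab2, a scavenger receptor of sinusoids, had levels of 0.89 in the femur and -1.77 in the maxilla, a difference of -2.66. The pan-endothelial genes Esam, Tie1 and Pecam1 had differences of -1.19, -1.01 and -0.97, and the list median was -0.57 beside -0.08 for mandible minus ilium. All 10 counted fat cell genes were lower in the maxilla and 0 passed 4-fold, with Adipoq (adiponectin) at -1.95 and Pparg at -1.94 and a median of -1.34 beside -0.99. In the mandible and ilium pair 3 fat cell genes were past 4-fold lower, and after median centring 2 were in the maxilla. Immediate early genes, which respond within minutes to handling, had 0 of 14 past 4-fold and a median of 0.51 beside -0.10, with Jun the largest at 1.94. Of 12 genes used as PCR references 11 were lower in the maxilla, 1 of them past 4-fold. Among them Gapdh had a difference of -1.48, B2m one of -0.96 and Tbp one of -0.93, and the list median was -0.59 beside -0.57.

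The largest differences of single genes include some outside the lists. Higher in the maxilla by measured differences were 5430402E10Rik (11.67) and Dnase1, a secreted nuclease (11.41). Bounds gave A2ml1, a protease inhibitor of epithelia, at least 12659-fold, BC051076 at least 7024-fold, 2310057J18Rik at least 6253-fold, Scgb1b27, a secretoglobin of glands, at least 3152-fold and Sbpl at least 2511-fold. Lower in the maxilla were Btnl10 (-5.07), Tnnc1, the slow and cardiac troponin C (-5.05), Ankle1 (-4.60), Kif18b, a mitotic kinesin (-4.48), and Jsrp1, a muscle calcium-release protein (-4.41). Bounds on the femur side were smaller. Besides the Hox genes they were at least 14.4-fold for Slc30a10, a manganese transporter, 14.1-fold for the brightest of 3 probes of Gfap, an intermediate filament of glia, 11.9-fold for Foxd4, 11.8-fold for 2010110K18Rik, 10.8-fold for Prkag3, a muscle kinase subunit, and 10.3-fold for F2rl2, a thrombin receptor. With normexp these 6 were not past 4-fold, with differences from -1.81 to -1.18, and Gfap was not as the median over probes.

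The calls of this pair were compared with those of the mandible and ilium pair. Of the 2550 genes at least 4-fold higher in the maxilla 684 were also at least 4-fold higher in the mandible, which is 26.8% of the first count and 62.9% of the second. Of the 1411 genes lower in the maxilla 593 were lower in the mandible as well, 42% and 69.4%. In the opposite direction, 22 genes were past 4-fold higher in the maxilla and lower in the mandible, and 0 were lower in the maxilla and higher in the mandible. The difference between the pairs was not tested, as each rests on 1 array for each bone.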

How the data were processed

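Total RNA of each bone was labelled with cyanine 3 and hybridised to 1 Agilent whole mouse genome array, per the labels' protocols. What the authors deposited for each array is the intensity of every spot, not on a log scale, read with Agilent Feature Extraction 9.5.3.1 according to the submitters' processing notes. Per the file headers, the processed signal used here had spatial and multiplicative detrending switched on, with surrogate values for dim spots, which makes low levels unreliable. The authors' deposited series table holds log2 values. The study names GeneSpring for its analysis, and whether that program made the table is not given in the sources used here. Its maxilla minus femur difference was the scanner difference plus a constant of -0.386 within 0.001 for 99.9% of 40923 probes, and how that constant was set is not given in the sources used here.

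From the processed signal of 43379 spots that were not controls, log2 values minus the 75th percentile of the array were computed in Python 3.11.15 (numpy 2.4.6, pandas 2.3.3). Outlying spots were left out, spots of 1 of the 41174 probes were averaged, and a probe counted as well above background when at least 1 in 2 of its kept spots were. A gene takes the probe with the highest mean over the 4 arrays. Of 1250 genes past 4-fold with at least 2 counted probes, 1180 had all probes in 1 direction and 714 had all past 4-fold. Names came from the files and a RefSeq table of GRCm38.p6, used for names only: 24375 probes matched by accession, 6301 by symbol, 2426 by an older symbol, and 8072 kept the file's name. Positions of probes were copied from the files, which give them on mm8.

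On the femur array 75.5% of spots were well above background and on the maxilla array 74.8%, with 0 saturated, and the 75th percentile of the signal was 1208 and 809.5. With 1 array for each bone, precision is limited by that number. All arrays were scanned on 1 slide, so place on the slide and bone cannot be told apart. The counting steps were tested on simulated data.

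Genes named are the 12 largest measured differences and 12 largest bounds in each direction, up to 4 members of each of 42 gene lists by size, genes the study names, list members with opposite directions in the 2 pairs, and others, named as exceptions or label checks after their values were seen. Some members chosen by this rule are not reported here. The members and lists were chosen with earlier results of these data known. Alternatives were normexp background correction (limma 3.58.1 in R 4.3.3, offset 50), quantile normalization, median centring, another percentile base, the deposited table, other background filters, no bound, the median over probes and leaving out whole probes for an outlying spot.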

Additional observations from a re-analysis of the deposited data

Results flagged for a closer look

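Of the members of the gene lists, 4 lay past 4-fold in opposite directions in the 2 pairs of bones, higher in the maxilla than in the femur and lower in the mandible than in the ilium. Bpifa1, the airway surface protein, had a difference of at least 13.86 for maxilla minus femur and of -2.00 for mandible minus ilium, its ilium level being -1.86. The other 3 are cartilage genes. Col10a1 had differences of 2.37 and -4.44, Snorc, a chondrocyte membrane proteoglycan, of 3.50 and -5.77, and Ucma of 4.57 and -4.42. In each case the maxilla and the ilium were the higher bones of their pairs, and for each pair there was 1 array for each bone, so the difference between the pairs was not tested. Both Col10a1 values are bounds on the size of the difference, since the femur and the mandible were not well above background.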

How the results depend on the processing

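Of the 42 list medians, 20 were past 4-fold, and these kept their direction under all 10 alternatives; the cornified envelope median fell short of 4-fold after normexp. The osteoclast median ran from -0.31 to 0.31 and changed sign under 3 alternatives. With normexp 1594 genes were past 4-fold higher in the maxilla and 897 lower, with 279 and 344 shared with the mandible and ilium pair. The median difference of all genes was 0.14 with normexp, -0.15 after quantile normalization, -0.38 after median centring, -0.40 in the deposited table and 0.11 with no filter on background; the cause was not tested. Of 385 named or listed genes past 4-fold, 68 fell short with normexp, 26 in the deposited table, 22 after median centring and 16 with the median over probes, Itgb3, Siglec1, Igll1, Dnah9 and Dcx among the last, and 0 changed direction. Ngfr had -0.42 where the probe with an outlying spot was left out. With 1 array for each bone, no replicate could be left out. No paired analysis was possible with 1 array for each bone. Signals near background limit the bounds: 777 of the 2550 higher calls and 90 of the 1411 lower calls rest on one.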

Other observations

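Chemosensory receptor families were grouped by name after the data were seen, and the difference between them was not tested. Of all 27594 genes with a value, 20369 were well above background in the maxilla and 20622 in the femur. These shares are larger than those of either receptor family in the same bone. Of 129 vomeronasal receptor genes (Vmn1r and Vmn2r, the pheromone receptors of the vomeronasal organ) 90 were well above background in the maxilla, 39 in the femur, 24 in the mandible and 26 in the ilium. Of the 95 counted, 52 were at least 4-fold higher in the maxilla and 1 was lower, with a median difference of 2.50. Vmn1r89 had levels of 0.52 in the maxilla and -7.61 in the femur, not well above background, and was at least 132-fold higher. Members of these families are alike in sequence, so a probe may read more than 1 of them. Of 911 olfactory receptor genes (Olfr), 298 were well above background in the maxilla and 384 in the femur. Of the 413 counted, 28 were at least 4-fold higher in the maxilla and 10 lower, with a median of -0.01, and both counts are smaller shares than the 11.7% and 6.48% of all genes. Olfr727 and Olfr726 led the first, at least 146-fold and 52.5-fold higher, and Olfr1153 the second, with levels of -0.11 in the femur and -3.38 in the maxilla.

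The 22 genes higher in the maxilla than in the femur and lower in the mandible than in the ilium include secreted liver and gland proteins beside the 4 given above. Mup1, a major urinary protein with near-identical copies, has 3 probes, of which 1 was counted. As the median over probes its difference between maxilla and femur was 0.33, not past 4-fold. The brightest Mup1 probe had levels of -1.80 in the femur, 7.10 in the maxilla, -5.35 in the mandible and -0.36 in the ilium. Serpina1d, a protease inhibitor with close copies, had levels of -5.06, 3.62, -3.73 and 0.15 in the same order, and Cytl1, a cytokine-like protein of cartilage, -3.27, 1.16, -2.54 and 2.22. Foxa2, a transcription factor of endoderm-derived tissue, was well above background in the maxilla and the ilium at levels of -2.53 and -2.97 and not in the femur or the mandible. These genes were chosen after their values were seen.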
